A study of Mus musculus with 8 samples.

Results

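The genes described here mostly encode proteins of the spliceosomal snRNPs and the core splicing factors that bind with them. They were chosen by symbol alone, as every gene of the deposited gene table whose symbol begins with Snrp, Snrnp, Sf3a, Sf3b, U2af, Prpf and a number, or Lsm and a number (Lsm11 excepted), together with Sf1. This gave 46 of the 10601 symbols in that table. Among them are Lsm12, Lsm14a and Lsm14b, which share the name but are not snRNP proteins, and Lsm1, which belongs to a cytoplasmic complex. They are counted as members throughout. The table itself holds only genes above the study's minimum of 10 RPM in some mouse, so genes below it in all mice could not be members. All 46 passed it here too, on normalized counts scaled to each mouse's total, and 40 passed it in every mouse. The 6 that did not were Snrpe, Snrpd2, Snrpa, Snrnp35, Snrnp25 and Sf3a2. Snrpf, Snrpg, Snrpc, U2af1, Sf3b4, Lsm2, Lsm5, Lsm7 and Lsm8 were not analysed here.

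RNA was sequenced after poly(A)+ selection from the right cerebral cortex of 4 bigenic mice (Camk2a-tTa / deltaNLS-hTDP-43) and 4 nontransgenic mice, all on the C57BL/6 strain. In the bigenic mice a Camk2α promoter drives the tetracycline transactivator, which switches on human TDP-43 with a mutated nuclear localization signal once doxycycline is withdrawn. The promoter is active mainly in excitatory forebrain neurons, so cells with and without the transgene are mixed in each cortex. Both groups received doxycycline until 28 days of age and were killed 10 days after its removal.

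Pre-mRNA introns are removed by the spliceosome, which is built from the U1, U2, U4, U5 and U6 snRNPs, each a small nuclear RNA with its proteins. The Sm proteins form a ring around U1, U2, U4 and U5 RNA, and the related LSm proteins form one around U6 RNA. U1 marks the 5′ splice site, U2 the branch point, and the U4/U6.U5 tri-snRNP then joins and is rearranged into the catalytic spliceosome. A minor spliceosome with U11 and U12 removes a small class of introns, and the U7 snRNP, which shares several Sm proteins, processes the 3′ ends of histone transcripts.

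Of the members, Snrpe and Snrpd3 are the pair that the study also measured by RT-qPCR, on RNA of the sequenced mice. It reported Snrpe lower and Snrpd3 higher in bigenic mice off doxycycline, and neither difference in mice kept on it. The primers mark where in these transcripts the change was followed outside sequencing. They are printed 5′ to 3′ in lower case, with no base singled out.
Snrpd3 forward: attggtgtgccgattaaagtct
Snrpd3 reverse: ctgcttcaatgagcttccctc
Snrpe forward: cagggccaaaaggtgcagaa
Snrpe reverse: attcacttgttcatacagccaca
In the mm9 genome both Snrpd3 primers lie in exon 2 of 4, at chr10:74982086-74982107 on the plus strand and chr10:74982165-74982185 on the minus strand. The Snrpe primers lie in exon 1 of 5, at chr1:135506760-135506779 on the minus strand, and in exon 3, at chr1:135505498-135505520 on the plus strand. Snrpe is on the minus strand, so its primer pair spans introns, whereas the Snrpd3 pair does not.

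Values are normalized counts, that is reads per gene divided by a factor for each mouse. Mice are numbered in the order of the deposited columns. Total normalized counts were 20.1 to 22.0 M per mouse, and the reads behind them were estimated at 10.6 to 31.9 M. The fewest reads behind any member value were about 57, for Snrpa in the second bigenic mouse. That library was the shallowest and stood apart from the other bigenic libraries: its score on the first principal component of all genes was 46.0, against 12.8 to 15.1 for the other bigenic mice and -26.5 to -14.0 for nontransgenic mice. Results are therefore given with and without it. The transcript model uc999vvf.1, which has no gene symbol, had 29375 to 41550 normalized counts in bigenic and 5 to 80 in nontransgenic mice. The labelled groups thus stood far apart in it, but what it encodes is not labelled, so it is no check of the labels. The neuronal markers Rbfox3, Snap25, Slc17a7 and Camk2a were present in every mouse.

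Lsm6, Prpf18, Snrpd3, Snrpn and Snrnp35 were higher in bigenic mice, and Snrpe, Snrpd1, Sf3b5, Snrpb2, Prpf39 and Lsm14b were lower. That is 11 of 46 members (23.9%) with an adjusted p below 0.05 in limma on log2(normalized count + 1), against 35.9% of all 10588 genes tested. The 5 members that rose compare with 20.5% of all genes, and the 6 that fell with 15.4%. The changes were small: called members moved by 0.27 to 0.64 on the log2 scale in either direction, and the median size of a called change was 0.36 among members and 0.49 among all called genes. The median log2 fold change was 0.09 over the 46 members and 0.03 over all genes. Above 0 lay 33 of 46 members and 5643 of all 10588 genes. The groups did not overlap for 14 members (30.4%), 7 in each direction, against 39% of all genes, 22.3% higher and 16.7% lower. The 95% interval of the fold change lay within 1.5-fold for 33 members (71.7%), compared with 58.6% of all genes, and 29 of these 33 were not called.

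**Figure D1:**
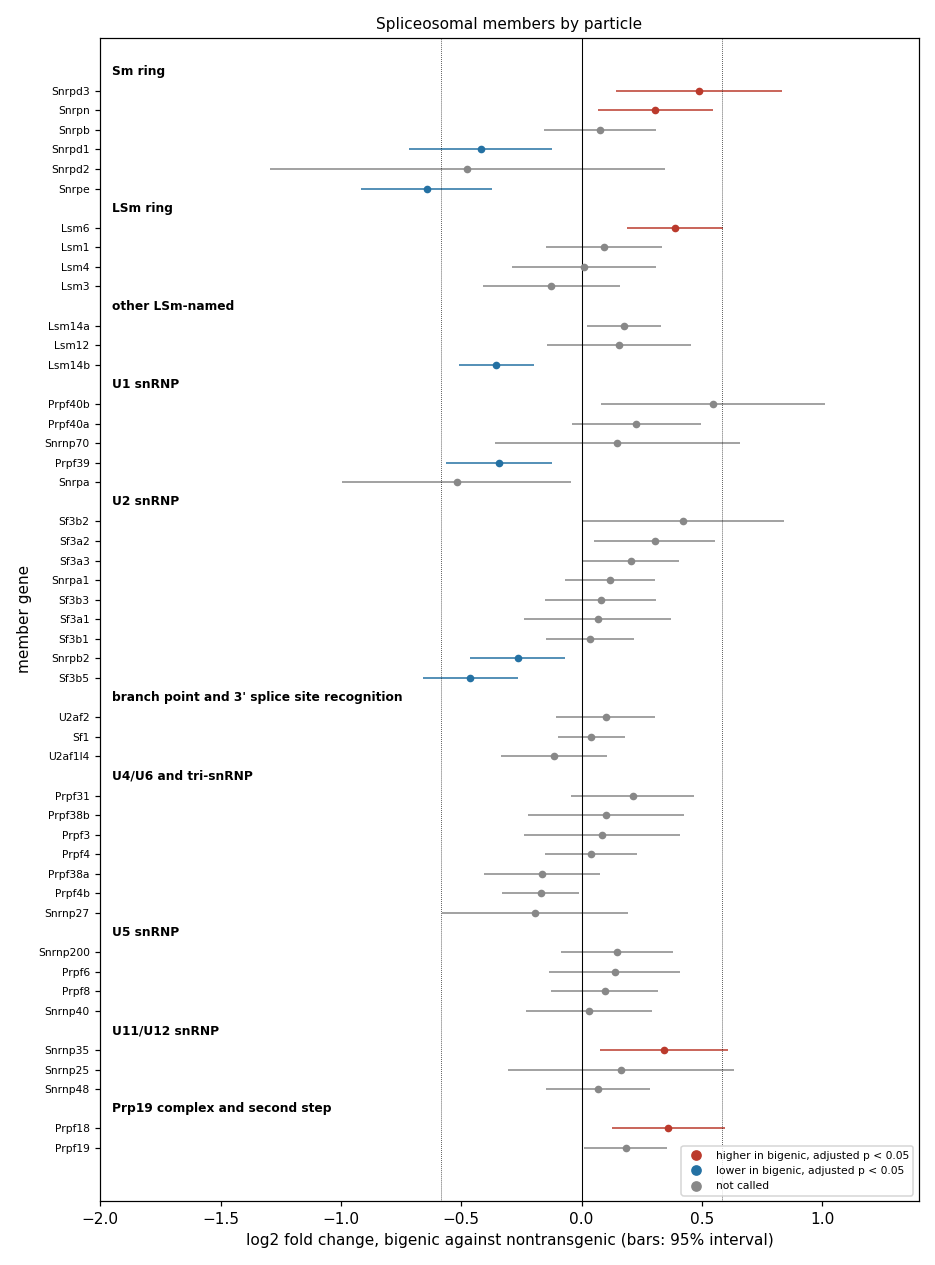
Log2 fold change of each of the 46 members between bigenic and nontransgenic mice (x axis), grouped by particle (y axis); points are limma estimates, bars 95% intervals, and dotted lines mark a change of 1.5-fold. Called members stand in both directions, with 2 higher and 2 lower in the Sm ring and none in the U4/U6, U5 and branch point groups.

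The Sm ring had the largest share of called genes of any particle, 4 of the 6 measured, and they did not move one way. Snrpe (uc007cql.2, chr1:135500448-135506868), which encodes SmE, had 246, 196, 212 and 172 normalized counts in the bigenic and 313, 311, 341 and 318 in the nontransgenic mice. Every bigenic mouse was below every nontransgenic mouse, and the log2 fold change was -0.64 ± 0.12 (SE, n = 4 per group, limma adjusted p = 0.0032). It is the largest fall among the members, and it was called in all 8 fits that left out 1 mouse. Snrpd1, encoding SmD1, was also lower, with 411, 281, 415 and 386 normalized counts in bigenic and 472, 452, 533 and 522 in nontransgenic mice. The groups again did not overlap (log2 fold change -0.42 ± 0.13, limma adjusted p = 0.033). Only 81.9% of the 50-base windows of its exons are unique in the genome, and after removal of the trend with GC content and exonic length the adjusted p was 0.070. The call was also lost without bigenic mouse 4 or without any 1 nontransgenic mouse, with adjusted p up to 0.094.

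Snrpd3 (uc007fqm.1, chr10:74980787-74998185) encodes SmD3, which pairs with SmB in the ring, and it moved the opposite way. Its normalized counts were 751, 1100, 648 and 695 in bigenic and 544, 597, 595 and 498 in nontransgenic mice, again without overlap. The log2 fold change was 0.49 ± 0.16 (SE, limma adjusted p = 0.034), with the second bigenic mouse far above the others. Without that mouse the change was 0.32 with an adjusted p of 0.012, so the call did not rest on it. Leaving out the first bigenic mouse or any 1 nontransgenic mouse lost the call, with adjusted p up to 0.083.

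Snrpn (uc009hes.1, chr7:67127388-67285105) encodes SmN, the form of SmB that predominates in neurons, from an imprinted locus whose transcript also encodes Snurf. It had 10734, 9778, 13291 and 13005 normalized counts in bigenic and 9656, 9103, 10076 and 8778 in nontransgenic mice. Bigenic mice 3 and 4 were highest, while the second lay inside the nontransgenic range, so that the groups overlapped in this called member alone. The log2 fold change was 0.31 ± 0.11 (limma adjusted p = 0.048). Without the second bigenic mouse it was 0.39 (adjusted p = 0.0032), and leaving out any other mouse lost the call, with adjusted p up to 0.12. Snrpb, the gene of SmB and SmB′ themselves, had 735, 974, 767 and 773 normalized counts against 792, 704, 834 and 737. All but the second bigenic mouse lay within the nontransgenic range, and the 95% interval of its log2 fold change was -0.16 to 0.31 (adjusted p = 0.59), with an estimate of 0.08 that became -0.01 without that mouse. Per kilobase of merged annotated exons, the nontransgenic mean was 4280 normalized counts for Snrpn and 388 for Snrpb, so the neuronal form was the more abundant of the pair in this tissue.

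Snrpd2 was not called (log2 fold change -0.48, 95% interval -1.30 to 0.35), and its interval was the widest of the members. It was -0.26 without the second bigenic mouse and 0.11 under array weights. Its values split the bigenic group, with 131 and 157 normalized counts in the first 2 mice and 405 and 441 in the others, around a nontransgenic range of 287 to 387. Only 56.0% of its 50-base windows are unique in the genome, so uniquely mapped reads cover it in part. The opposite directions of Snrpd3 and Snrpe can also be read within a mouse, as a ratio chosen after the values were seen and not tested. Both genes had been called, in opposite directions, so the ratio adds no separate support. Snrpd3 per kilobase was 6.93, 12.7, 6.94 and 9.18 times Snrpe per kilobase in the bigenic mice and 3.95, 4.36, 3.96 and 3.56 times in the nontransgenic mice. The mean ratio was 8.95 ± 2.74 (SD, n = 4) in bigenic and 3.96 ± 0.328 (SD, n = 4) in nontransgenic mice. Snrpb, Snrpd3 and Snrpe also belong to the U7 snRNP, and the study itself listed them for histone 3′ end processing on these samples.

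**Figure D2:**
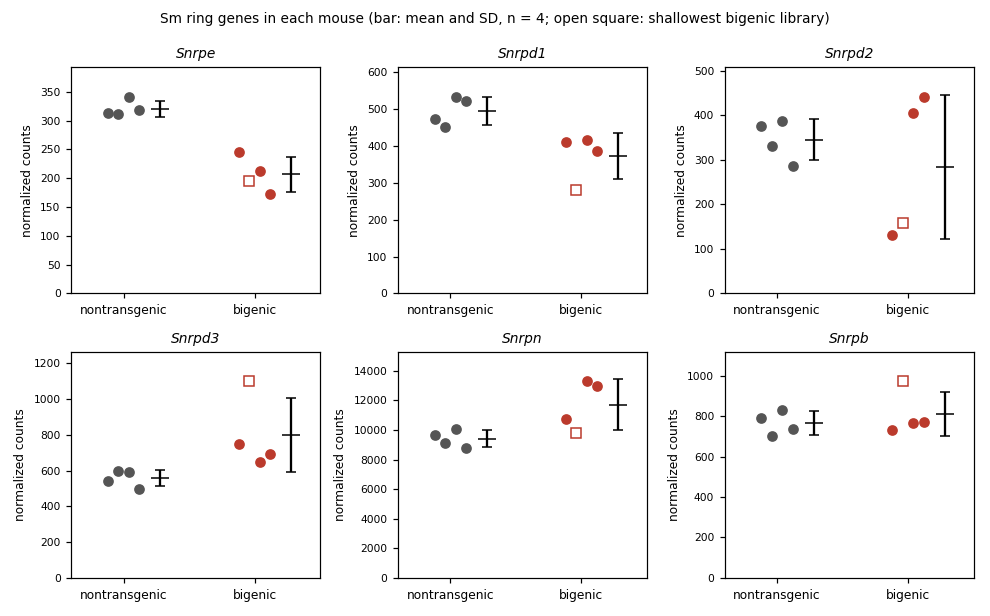
Normalized counts (y axis, from 0) of the 6 Sm ring genes in each nontransgenic (grey) and bigenic (red) mouse, with mean and SD (n = 4 per group); the open square is the second bigenic mouse. Snrpe and Snrpd1 lie below and Snrpd3 above the nontransgenic mice in every bigenic mouse, while Snrpd2 splits the bigenic group at 131 and 157 against 405 and 441.

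In the LSm ring 1 of 4 measured genes changed. Lsm6 (uc009mie.2, chr8:81328764-81345039), a subunit both of the nuclear ring on U6 RNA and of the cytoplasmic ring that starts mRNA decay, had 496, 585, 543 and 551 normalized counts in bigenic and 442, 419, 427 and 374 in nontransgenic mice. All bigenic mice were higher, with a log2 fold change of 0.39 ± 0.09 (SE, limma adjusted p = 0.0082), and the gene was called in all 8 fits without 1 mouse. Lsm3, a subunit of the same rings, had 592, 589, 495 and 480 against 562, 523, 538 and 742 normalized counts, with overlap and an adjusted p of 0.47. Lsm1, particular to the cytoplasmic ring, and Lsm4 gave log2 fold changes of 0.09 and 0.01 and were not called, and Lsm4 stood at -0.09 without the second bigenic mouse.

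Among proteins that carry an LSm domain without belonging to these rings, Lsm14b and its paralogue Lsm14a lay on opposite sides of 0. Both are related to proteins of cytoplasmic RNA granules. Lsm14b (uc008ohy.1, chr2:179759692-179770170) had 1668, 1704, 1602 and 1499 normalized counts in bigenic and 2030, 2073, 2090 and 2071 in nontransgenic mice. It fell by 0.35 ± 0.07 on the log2 scale (SE, limma adjusted p = 0.0037), was lower in every bigenic mouse and was called in all 8 fits without 1 mouse. Lsm14a had 1709, 1839, 1700 and 1661 against 1552, 1454, 1531 and 1583 normalized counts. Its bigenic values were all the higher ones, but its log2 fold change of 0.17 ± 0.07 did not pass the test (adjusted p = 0.073).

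The U1 group, the proteins of the particle that recognises the 5′ splice site, had 1 called gene of 5. Prpf39 (uc007nqw.1, chr12:66137320-66164373), a U1-associated factor, had 1540, 1317, 1751 and 1599 normalized counts in bigenic and 1776, 1968, 1987 and 2119 in nontransgenic mice. It was lower without overlap (log2 fold change -0.34 ± 0.10, limma adjusted p = 0.023). An exonic stretch, 6.9% of its exonic length, overlaps Fkbp3 on the other strand, and the adjusted p was 0.11 after removal of the GC and length trend. The call was also lost without nontransgenic mouse 2, 3 or 4, with adjusted p up to 0.063. Prpf40b, also U1-associated, had 1252, 2544, 1277 and 1339 normalized counts in bigenic and 982, 1032, 970 and 1216 in nontransgenic mice. Although all bigenic mice were higher, the second stood far above the rest, and the log2 fold change of 0.55 ± 0.21 was not called (adjusted p = 0.065). Without that mouse it was 0.30 and passed (adjusted p = 0.014). The core U1 proteins Snrnp70 and Snrpa gave log2 fold changes of 0.15 and -0.52, neither called, with 95% intervals of -0.36 to 0.66 and -0.99 to -0.04. They were -0.06 and -0.33 without the second bigenic mouse.

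In the U2 snRNP, which pairs with the branch point, 2 of 9 measured genes changed and both fell. Sf3b5 (uc007eki.2, chr10:12728256-12728988), a small subunit of the SF3B complex encoded by a single exon, had 266, 283, 266 and 283 normalized counts in bigenic and 370, 365, 417 and 365 in nontransgenic mice. The bigenic values barely varied and lay far below the others, at a log2 fold change of -0.46 ± 0.09 (SE, limma adjusted p = 0.0033), and every fit without 1 mouse called it. Snrpb2 (uc008mqb.1, chr2:142888775-142898589), the U2 B″ protein that binds a stem loop of U2 RNA, had 420, 447, 421 and 396 against 505, 470, 568 and 485 normalized counts. It was lower without overlap, by -0.27 ± 0.09 on the log2 scale (limma adjusted p = 0.041). This call was kept only when the second bigenic mouse was left out, was lost without any other mouse (adjusted p up to 0.13), and gave an adjusted p of 0.41 after removal of the GC and length trend. The other SF3 subunits, Sf3a1, Sf3a2, Sf3a3, Sf3b1, Sf3b2 and Sf3b3, had log2 fold changes of 0.03 to 0.42, all above 0 and none called. Without the second bigenic mouse Sf3a1 stood at -0.08, Sf3b3 at -0.01 and Sf3b2, the highest of them, at 0.22 instead of 0.42. Snrpa1, the partner of Snrpb2 on U2 RNA, stood at 0.12, or 0.07 without that mouse, and was not called.

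No gene was called for branch point and 3′ splice site recognition. U2af2, the large U2AF subunit that binds the polypyrimidine tract, had 576, 654, 715 and 741 normalized counts in bigenic and 631, 618, 640 and 606 in nontransgenic mice. The log2 fold change was 0.10 with overlap (adjusted p = 0.42), and 49.0% of its windows are unique. U2af1l4, a relative of the small U2AF subunit, had 502, 416, 429 and 392 against 468, 447, 450 and 514 normalized counts (log2 fold change -0.12, adjusted p = 0.39). Sf1, which first binds the branch point, had the smallest standard error of the members, with a log2 fold change of 0.04 ± 0.06 and a 95% interval of -0.10 to 0.18.

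The U4/U6 and tri-snRNP group likewise had no call among 7 genes, and all 7 intervals lay within 1.5-fold. Prpf4b, a kinase of the tri-snRNP, had 2789, 3050, 2921 and 2922 normalized counts in bigenic and 3250, 3206, 3118 and 3582 in nontransgenic mice. The groups did not overlap, but the log2 fold change of -0.17 ± 0.07 did not pass (adjusted p = 0.088). Prpf31, which joins U4/U6 to U5, had 640, 757, 551 and 556 against 553, 480, 562 and 553 normalized counts, with overlap, a log2 fold change of 0.21 (0.12 without the second bigenic mouse) and an adjusted p of 0.17. Without the second bigenic mouse Prpf4b, Prpf38a and Snrnp27 were called lower, at -0.19, -0.25 and -0.38 on the log2 scale (adjusted p = 0.030, 0.033 and 0.010).

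The 4 U5 genes include the largest proteins at the heart of the spliceosome, and none was called. Snrnp200, the helicase that unwinds U4 from U6, had 4848, 6231, 4522 and 4591 normalized counts in bigenic and 4758, 4276, 4482 and 4578 in nontransgenic mice. Its log2 fold change was 0.15, with a 95% interval of -0.09 to 0.38 (adjusted p = 0.30), and only the second bigenic mouse was well above the rest. Without it the log2 fold change was 0.04. Prpf6, which bridges U5 and U4/U6, had 1759, 2289, 1689 and 1726 against 1666, 1579, 1520 and 2009 normalized counts (adjusted p = 0.40), with a log2 fold change of 0.14, or 0.03 without that mouse. Prpf8, the scaffold of the catalytic centre, and Snrnp40 gave 0.10 and 0.03 and were not called, and 0.18 and -0.03 without it.

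Of the 3 proteins of the minor U11/U12 snRNP, Snrnp35 (uc008zpy.1, chr5:124933143-124941133) was called. It had 213, 263, 210 and 207 normalized counts in bigenic and 168, 185, 168 and 180 in nontransgenic mice, higher in all bigenic mice (log2 fold change 0.34 ± 0.12, limma adjusted p = 0.048). The call was lost in each of the 8 fits without 1 mouse, with adjusted p of 0.055 to 0.12. All 4 nontransgenic values lay below 10 RPM, so the gene was tested only through the group where it was high, and with no filter on low values its adjusted p was 0.067. Snrnp25 had 196, 405, 222 and 206 against 207, 222, 230 and 218 normalized counts, with the second bigenic mouse far above the nontransgenic range and the first and last just below it. Its log2 fold change was 0.16 with all mice and -0.08 without that one, and it was called in neither.

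Prpf18 (uc008iex.1, chr2:4543104-4573159), which acts in the second catalytic step, had 2302, 2811, 2115 and 2106 normalized counts in bigenic and 1781, 1697, 1750 and 2007 in nontransgenic mice. It was higher without overlap (log2 fold change 0.36 ± 0.11, limma adjusted p = 0.024), also without the second bigenic mouse (0.27, adjusted p = 0.012), but not without nontransgenic mouse 1, 2 or 3 (adjusted p up to 0.074). Prpf19, the ubiquitin ligase of the Prp19 complex, had 2290, 2447, 2542 and 2699 against 2293, 2200, 2262 and 2031 normalized counts. Only the first bigenic mouse fell inside the nontransgenic range, and the log2 fold change of 0.18 ± 0.08 was not called (adjusted p = 0.092).

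Higher values of the members were concentrated in the second bigenic mouse. It was the highest of the 4 bigenic mice for 31 of 46 members (67.4%), compared with 43.1% of all genes. Its median deviation from the nontransgenic mean was 0.27 on the log2 scale over the members and 0.05 over all genes. The other bigenic mice stood at 0.05, 0.01 and -0.01 over the members and at 0.01, 0.03 and 0.03 over all genes. The second mouse was also the lowest of the 4 for 38.5% of all genes, against 13.0% of members. In it 10 of 46 members and 3677 of 10588 genes lay more than 1.5-fold from the nontransgenic mean. Without the second bigenic mouse 24 instead of 33 members lay above 0, and 5589 instead of 5643 of all 10588 genes. The median log2 fold change was then 0.01 over the members and 0.02 over all genes. Of the members 14 were called, 5 higher and 9 lower. In the same fit 45.5% of all genes were called, 25.3% higher and 20.2% lower. Of the 11 called with all mice, 10 were called again in that fit and Snrnp35 was not. Among all genes 3765 of the 3796 called were called again. The 4 other members called in that fit were Prpf40b, Prpf38a, Prpf4b and Snrnp27. With limma array weights, which kept all mice but gave that library little weight, 23 members, all 11 among them, and 61% of all genes were called. Across all fits that left out 1 mouse, the number of members called ranged from 4 to 14, and that of all genes from 2654 to 4817. Called in all 8 were 4 of the 11 called members, namely Lsm6, Snrpe, Sf3b5 and Lsm14b, against 2436 of the 3796 called genes. No called member changed sign in any of these fits. Neither did any other of the 3796 called genes, so this is not particular to the members.

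**Figure D3:**
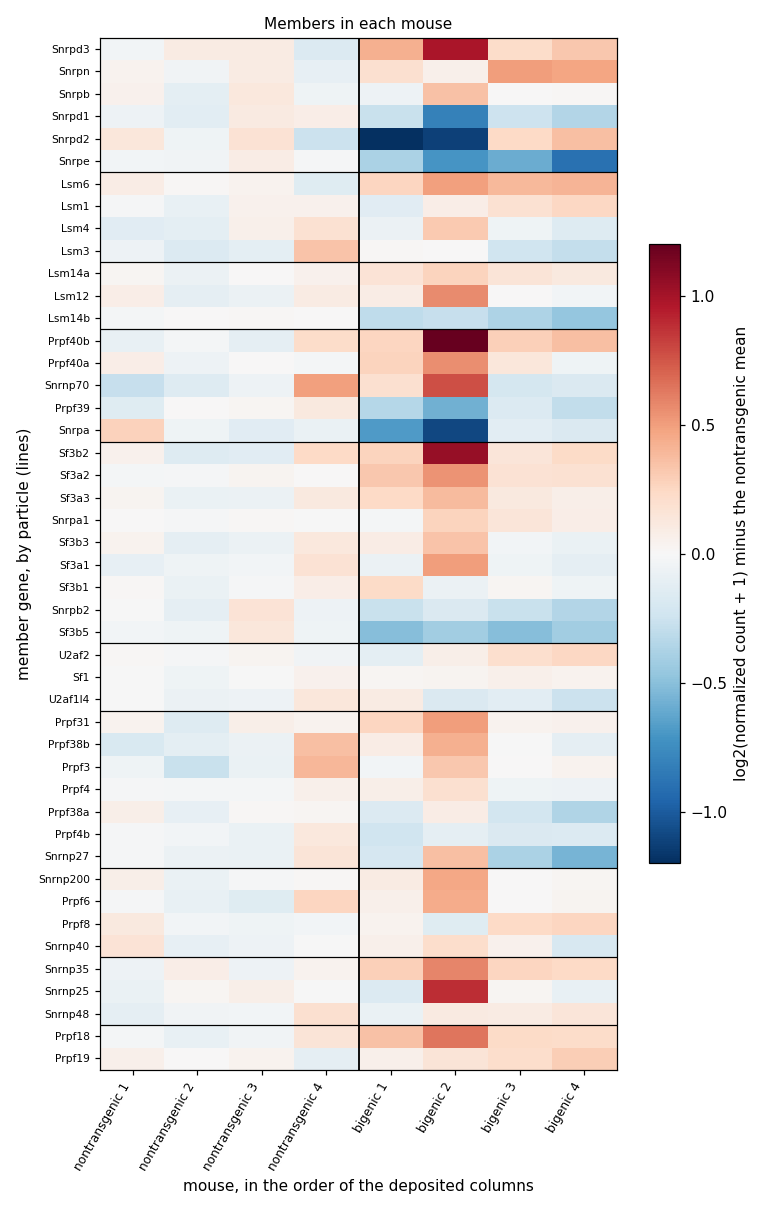
Log2(normalized count + 1) of each member (rows, by particle) in each of the 8 mice (columns), minus the nontransgenic mean; colours saturate at 1.2 in either direction. The second bigenic mouse is the reddest column, the highest bigenic mouse for 31 of 46 members, while Snrpe, Snrpd1, Sf3b5 and Lsm14b are blue in all bigenic mice.

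**Figure D4:**
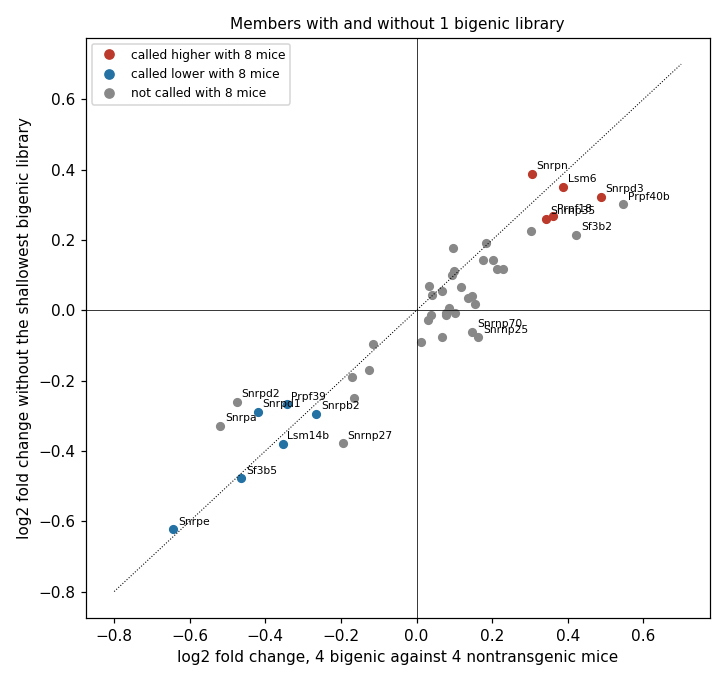
Log2 fold change of the 46 members with all 8 mice (x axis) and without the second bigenic mouse (y axis), coloured by the call with 8 mice; the dotted line marks equal values. Most members with positive values lie under the line, whereas Snrpe, Sf3b5 and Lsm14b stay at -0.62, -0.48 and -0.38.

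Features that the symbols do not fix were compared between members. The median exonic length was 2197 bases for the members that rose, 2114.5 for those that fell and 3104 for those not called. Over all genes tested, 32.9% were called at or below the members' median length of 2874.5 bases and 37.0% above it. Among the 25 members with 10 exons or fewer 9 were called (36.0%), and 2 of the 21 with more (9.52%). Among all genes of any exon number 35.9% were called. The share by exon number was not computed over all genes, so these counts have no matched background. Over the 46 members the log2 fold change had a Spearman rho of 0.20 with exonic length and 0.25 with exon number, as a description of genes measured in the same 8 libraries. Over 10206 genes the rho with exonic length was 0.03. With GC content it was 0.22 over those genes and 0.08 over the members. Exons of 9 members overlap another annotated gene, and Prpf39 is the called one among them.

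Other genes of the splicing pathway were described from lists of partners. Of 76 listed genes 72 were tested and 17 were called (23.6%, against 35.9% of all genes), 9 higher and 8 lower. The median log2 fold change was 0.16, and 0.06 without the second bigenic mouse. The remodelling helicases and step factors had 4 calls of 9, all higher. Among them Dhx35, a DEAH-box protein, had a log2 fold change of 0.49 (adjusted p = 0.0022) and Slu7, a second step factor, 0.54 (adjusted p = 0.026). Slu7 was led by the second bigenic mouse, with 3503 normalized counts against 2001 to 2284 in the other bigenic and 1496 to 1718 in the nontransgenic mice, and without it the change was 0.36 (adjusted p = 0.0024).

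In the Prp19-related and activation list 5 of 15 were called, 1 higher and 4 lower. Rbm22 and Plrg1, components of the activated spliceosome, were lower by -0.57 and -0.63 (adjusted p = 0.0027 and 0.0031). Among U1 and U2 partners 3 of 15 were called, with the U2-associated pair Rbm17 at -0.47 (adjusted p = 0.0026) and Cherp at 0.70 (adjusted p = 0.015) on opposite sides. Among U5 and tri-snRNP partners 1 of 8 tested was called. This was Txnl4a, a small U5 protein, with 2992, 3584, 3284 and 3434 normalized counts in bigenic and 2185, 1983, 2253 and 2197 in nontransgenic mice (log2 fold change 0.62 ± 0.08, adjusted p = 0.00042). Ddx23, the helicase that displaces U1, stood at 0.58 and was not called (adjusted p = 0.059), whereas without the second bigenic mouse it was 0.33 and passed (adjusted p = 0.016).

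Among minor spliceosome partners 1 of 6 was called, Rnpc3, the U11/U12 protein that bridges both RNAs, at -0.49 (adjusted p = 0.0028), while Zmat5 stood at 0.19 and was not called. Of the genes for snRNA export, capping and Sm loading 3 of 9 were called. Ncbp1, the large cap-binding subunit, was lower at -0.48 (adjusted p = 0.0026), and Snupn, the importer of mature snRNPs, was higher at 0.36 (adjusted p = 0.020). No gene was called of 7 tested in the exon junction complex, where Pnn stood at 0.43 and Casc3 at 0.27, or of 3 in the retention and splicing complex, where Bud13 stood at 0.29 and Rbmx2 at 0.20. Without the second bigenic mouse these values were 0.24 for Pnn, 0.09 for Casc3, 0.23 for Bud13 and 0.07 for Rbmx2, and that of Zmat5 was 0.11. Rbmx2 and Zmat5 reached 10 RPM only in bigenic mice, Rbmx2 only in the second. Both were thus tested only through the group where they were high. Without the second bigenic mouse 21 of the 72 were called, 12 higher and 9 lower.

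The cell makeup of the samples was read from marker genes beside these values. Of 10 choroid plexus markers 4 were tested, and F5, Clic6 and Kl passed the filter only through bigenic mice, so that their direction was fixed by it. Ttr, which passed in both groups, was higher in all bigenic mice, and the 4 had summed normalized counts of 8385 to 19459 in bigenic against 363 to 1203 in nontransgenic mice. All 5 microglial markers were lower (3278 to 3709 against 4385 to 4956), as were 3 of 5 astrocyte markers and 1 of 4 endothelial markers, and 1 of 5 oligodendrocyte markers was higher. Of 9 neuronal markers 2 were higher and 4 lower, Camk2a among the latter at -0.88 on the log2 scale. The part of these shifts in the members' values was not tested. In bulk cortex, fewer cells of a type and less RNA per cell cannot be told apart.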

How the data were processed

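Right cortex RNA of 4 bigenic and 4 nontransgenic mice was analysed. The members and all gene lists were chosen with earlier results of these data known. Per the methods and labels, the authors trimmed adaptors (cutadapt), mapped reads to mm9 with Bowtie 0.12.7, kept uniquely mapping reads, counted reads per exon (bedtools) and summed exons to genes. The deposited table holds a signal for each gene and mouse, as rounded quotients of reads and a mouse-specific factor, not raw counts. What 1 read is worth (0.648 to 2.07 normalized counts) was estimated from missing and doubled integers, and on simulated data 8 of 8 such steps were recovered within 1 percent. A count of 3 reads equals 1.94 to 6.20 normalized counts. A second deposited table holds the authors' DESeq2 fold changes and p-values, of which only IDs and symbols were used. Columns name a group but not a numbered sample.

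Genes with at least 10 RPM in at least 1 mouse (10588) were fitted as log2(value + 1) with limma 3.58.1 (lmFit, eBayes with a trend, two-sided) in R 4.3.3, with Benjamini-Hochberg adjustment over all of them and a threshold of 0.05. Since values are not counts, no count test was the main one. The limma script was tested on simulated data. The p-values set the difference between the groups against the spread between mice within a group, moderated over all genes. Mouse positions, exonic lengths (all annotated exons merged), GC content and unique 50-base windows came from the mm9 annotation and genome. Values in every mouse are given for the 2 members per particle with the smallest adjusted p, for Snrpb, Snrpd3, Snrpe and Snrpn, and for any other member singled out after its values were seen (Snrpd2). Of each partner list the 2 genes with the smallest adjusted p are named. Python 3.11.15 was used. Alternatives were 2 pseudocounts, 2 filters, rescaling to equal totals, quantile normalization, array weights, voom on approximate reads, removal of the GC and length trend, a threshold of 0.01, and leaving out each mouse. Protein sequences were not used here.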

Additional observations from a re-analysis of the deposited data

Results flagged for a closer look

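In each group of 4 mice, the highest or lowest value was compared with its gap to the nearest other mouse. Of 92 such groups of member values 12 had a value standing apart by Dixon's criterion at 95%. Chance gives about 1 in 20 for independent normal groups, whereas all these groups share the same libraries. The share over all genes was not computed, so these counts have no matched background. In 8 of the 12 the value standing apart came from the second bigenic mouse, the shallowest library, each time as the highest. Its normalized counts were 974 for Snrpb, 2544 for Prpf40b, 405 for Snrnp25, 263 for Snrnp35, 1818 for Sf3a1, 10326 for Sf3b2, 2289 for Prpf6 and 687 for Lsm12. These belong to the Sm ring, U1, U2, U5, U11/U12 and LSm-named genes, and only Snrnp35 among them was called with all mice. The other 4 were nontransgenic values, namely 417 for Sf3b5 in the third mouse and 6309 for Prpf8 in the first and 473 for Prpf4 in the fourth, each the highest, and 480 for Prpf31 in the second, the lowest.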

How the results depend on the processing

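No paired analysis was possible because the columns carry no replicate number. The study also describes no pairing of bigenic with nontransgenic mice, so the groups were compared as independent animals. With either other pseudocount and with voom on approximate reads the same 11 members were called. No called member and no named pathway gene changed sign under any alternative. In the fits without 1 mouse that held for every called gene, member or not. Of the members not called, 14 changed sign under at least 1 alternative, among them Lsm3, Lsm4, Snrpb, Snrpd2, Snrnp70, Snrnp25 and Sf3a1. Under limma array weights, which gave the second bigenic mouse a weight of 0.0843, 23 members were called, 14 of them higher, with 6455 of all genes and 38 pathway genes. With no filter on low values 8 members were called, 3 higher and 5 lower. Of the 20912 genes then tested 19.9% were called, 10.7% higher and 9.2% lower. After removal of the GC and length trend 9 members were called, 6 higher and 3 lower. In that fit 38.7% of all genes were called, 22.1% higher and 16.6% lower. At an adjusted p below 0.01 there were 4 members (1 higher, 3 lower), 2057 of all genes and 9 pathway genes. Leaving out 1 mouse at a time gave 4 to 14 members, 1 to 5 higher and 3 to 9 lower, 2654 to 4817 of all genes, 10 to 21 pathway genes, and a median member log2 fold change of 0.01 to 0.12. Every alternative without 1 nontransgenic mouse called 4 or 5 members, at 1 mouse fewer. Of all genes those fits called 26, 25.2, 25.1 and 32.2%, in the order of the mouse left out. Rescaling to equal totals lost Snrpd1 and Snrpn and gained Prpf40b and Sf3a2, and quantile normalization lost Snrpn and gained Prpf4b. A filter of 10 RPM in every mouse removed Snrnp35 and Snrpe before the test. The causes of these shifts were not tested. GC content and length were known for 96.4% of genes. The fewest reads, about 57, lie behind a value of Snrpa.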
